A study of Mus musculus with 31 samples.

Results

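Testes and ovaries of Wv/Wv mouse embryos at 14 days post coitum (dpc) were compared, with 2 arrays of testes and 3 arrays of ovaries. They were picked from their labels for sex, age and genotype, and they are 5 of the 31 arrays of the series. Wv is a point mutation of Kit, which encodes the receptor for stem cell factor, and Wv/Wv embryos carry it on both alleles. The series holds whole gonads of both sexes from Wv/Wv and from wild-type embryos at 12, 14 and 16 dpc, 1 RNA sample on each Affymetrix array. The groups set beside the main comparison were Wv/Wv testes (3 arrays) and ovaries (2 arrays) at 12 dpc, Wv/Wv testes and ovaries at 16 dpc (3 arrays each), and wild-type testes and ovaries at 14 dpc (3 arrays each). The replicates are called biological in the labels, which do not say whether each is 1 embryo or a pool, so the p-values rest on the scatter among these arrays, which may be partly technical. Strain background was not given in the sources used here. The mutation changes the receptor's sequence, so the level of the Kit transcript does not check the genotype.

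Primordial germ cells depend on Kit signalling to survive and to reach the gonad, and few of them remain in Wv/Wv gonads. The somatic cells of the gonad take male or female paths after the Y-linked gene Sry acts in supporting cell precursors, which then form Sertoli cells and testis cords. Fetal Leydig cells arise outside the cords and make androgens from cholesterol, while supporting cells of the ovary become pregranulosa cells under Wnt4, Rspo1 and Foxl2.

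Values are log2 signals as the authors deposited them, 1 probe set per gene, and a change is the log2 difference of testis minus ovary fitted by limma with its SE. Genes with a p below 0.05 after Benjamini-Hochberg adjustment over all 18194 genes were counted as called. The arrays of the series fell into classes of wide (21 arrays) and narrow (10 arrays) spread of signal over probe sets, and the Gapdh control probe sets at the 3′ and 5′ ends of the transcript differed by 1.75 to 2.56 on wide arrays and by 0.508 to 1.12 on narrow ones. Testis array 1 and ovary array 1 were wide, while testis array 2 and ovary arrays 2 and 3 were narrow. Of the wild-type arrays at 14 dpc ovary array 1 was narrow and the others were wide, so changes between genotypes lean on the class term. The class was therefore a term of the fit, which used 30 arrays and left out wild-type testis 16 dpc array 1, whose spread was the lowest of all.

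The sex-linked genes matched the labels of all 5 arrays. Xist, the RNA that coats the inactive X chromosome, had signals of 6.28 and 7.28 in testes, against 12.6, 12.2 and 12.0 in ovaries. The groups were far apart, with a change of -5.48 ± 0.32 (limma adjusted p = 2.21e-11). Of 7 measured genes of the Y chromosome 4 rose in testes and 3, among them Sry itself at a change of -0.08, did not pass the test. Eif2s3y, a Y-linked translation factor gene, had 10.0 and 8.12 in testes, against 3.7, 3.74 and 3.47 in ovaries. Kdm5d, a Y-linked histone demethylase gene, had 9.14 and 7.66 in testes, against 2.65, 3.42 and 3.43 in ovaries. Both separated the sexes on every array, although their signal was lower on the narrow testis array than on the wide one. Other probe sets of Eif2s3y and Kdm5d gave much smaller changes.

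Among all genes, 2682 of 18194 (14.7%) were called, 1747 higher in testes (9.6%) and 935 lower (5.14%). The median change of all genes was 0.05, and 65.1% of the calls were rises. Of the rises 1744 of 1747 had a positive difference within both array classes, and of the falls 927 of 935 a negative one. The calls were made from these same arrays, so this agreement was largely built in and is no independent support. The largest rises were those of Cyp11a1, Cyp17a1, Gsta2, Cbln1, Cst9, Eif2s3y, Defb19, Kdm5d, Adh1 and Nts, with changes of 4.52 to 7.86. The largest falls were those of Calb1, Fst, Irx3, Xist, Gng13, Tnfrsf19, Foxl2os, Sbspon, Lzts1 and Lrrn1, with changes of -3.77 to -5.95. The count was 671 with no class term, 1320 in wide-spread arrays alone and 581 in narrow-spread arrays alone, and 1318 without testis array 2. Centring on housekeeping genes, of which B2m and Gusb rose in testes (Gusb not without testis array 2, adjusted p = 0.208), turned the split to 1003 rises and 2466 falls (28.9% rises) and moved the median of all genes to -0.18. Cyclic loess gave 1553 rises and 1401 falls (52.6% rises) and quantile normalization 1517 and 1501 (50.3%).

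**Figure D1:**
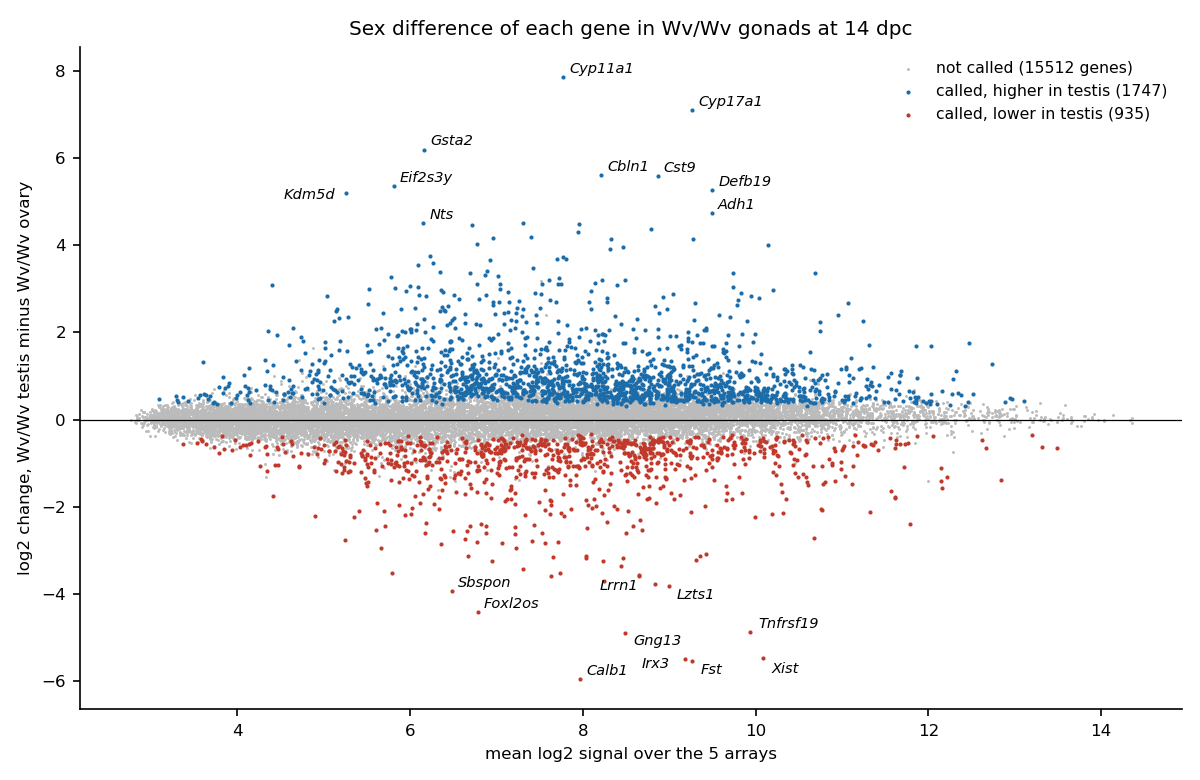
Each point is 1 gene, with the mean log2 signal over the 5 arrays on the horizontal axis and the log2 change, Wv/Wv testis minus Wv/Wv ovary at 14 dpc, on the vertical axis. Blue points were called higher in testes (1747 genes), red points lower (935 genes), and the 10 largest rises and falls are named, from Cyp11a1 at 7.86 to Calb1 at -5.95.

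**Figure D2:**
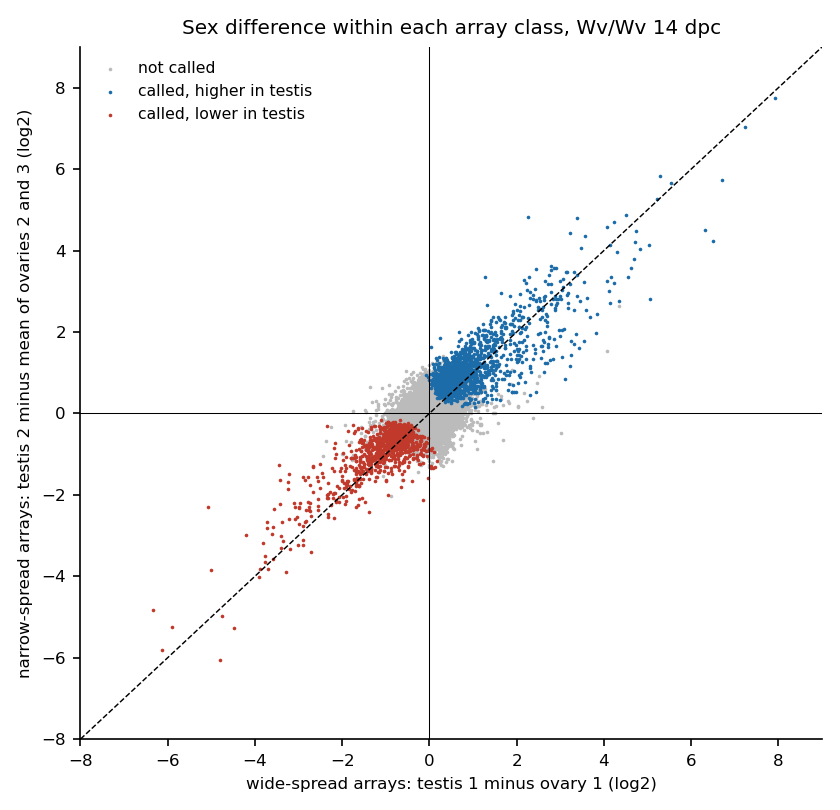
Each point is 1 gene, with the difference between testis array 1 and ovary array 1 (wide-spread arrays) on the horizontal axis and the difference between testis array 2 and the mean of ovary arrays 2 and 3 (narrow-spread arrays) on the vertical axis, both in log2 units. Genes called higher in testes (blue) had a median of 0.667 in the wide class and 0.911 in the narrow class, and genes called lower (red) had -0.931 and -0.795, and the dashed line marks equal differences. The calls rest on these same arrays, so agreement between the classes among called genes is largely built in.

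Cyp11a1 and Cyp17a1, steroid-making genes of Leydig cells, gave the largest differences between Wv/Wv testes and ovaries of all genes tested. In whole gonads, fewer cells of a type and less RNA per cell cannot be told apart, here and for every marker below. Of 8 measured genes of the Leydig cell and steroidogenesis list 7 rose and 0 fell, with a median change of 3.20, where 9.6% of all genes rose. The count was 7 in each array class alone, without each of the 5 arrays in turn and under every other setting run. The member that did not pass, named after its values were seen, was Cyb5a, the gene of a cytochrome that aids the lyase step, at a change of -0.08. Insl3 and Lhcgr were not analysed here.

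Cyp11a1 encodes the enzyme that cuts the side chain of cholesterol, the entry step of all steroid synthesis. Its signal was 12.6 and 12.4 in testes, against 4.66, 4.48 and 4.77 in ovaries. No other gene had as large a change, 7.86 ± 0.24 (limma adjusted p = 5.39e-16). The ovary signals lay below 5.387, the 40th percentile of all values, and against that limit testes were at least 136-fold higher. The other probe sets of Cyp11a1 gave changes down to 0.36. Cyp17a1, the hydroxylase and lyase that leads to androgens, had 13.6 and 13.4 in testes, against 6.42, 6.13 and 6.68 in ovaries. Its change of 7.1 ± 0.25 (limma adjusted p = 3.7e-15) was the next largest, and no array of one sex came near the other. Star, which carries cholesterol into mitochondria, had 11.1 and 10.2 in testes, against 6.56, 6.9 and 6.8 in ovaries. Its change was 3.9 ± 0.23 (limma adjusted p = 2.5e-11), and all 3 of its probe sets moved the same way, by 3.90 to 4.93. Hsd3b1, the dehydrogenase that makes progesterone and related steroids, had 12.7 and 12.8 in testes, against 9.31, 9.1 and 9.62 in ovaries. Its ovary signals were far above that limit, and its change was 3.36 ± 0.32 (limma adjusted p = 6.34e-08).

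The windows of 250 bases before and 50 bases from the annotated start of these genes are shown for Cyp11a1 and Hsd3b1, as genes that rose together, and for Foxl2 and Irx3, pregranulosa genes that fell; the 4 genes were chosen after their values were seen. Sequences are from RefSeq on build GRCm38.p6 and run 5′ to 3′ on the strand of the gene, with the 50 bases from the start on in capitals. Of the 135 genes named by rule 92 had a window, and Star, Cyp17a1, Fst and Calb1 had none.
Cyp11a1, first annotated start, chr9:57997774-57998073, plus strand: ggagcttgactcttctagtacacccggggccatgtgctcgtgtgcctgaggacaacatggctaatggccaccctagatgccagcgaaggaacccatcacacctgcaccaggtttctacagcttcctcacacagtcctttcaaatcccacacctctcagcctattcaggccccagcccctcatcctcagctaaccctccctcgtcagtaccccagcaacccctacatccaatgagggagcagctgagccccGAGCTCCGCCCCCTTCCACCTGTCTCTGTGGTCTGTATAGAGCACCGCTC
Cyp11a1, second annotated start, chr9:58014702-58015001, plus strand: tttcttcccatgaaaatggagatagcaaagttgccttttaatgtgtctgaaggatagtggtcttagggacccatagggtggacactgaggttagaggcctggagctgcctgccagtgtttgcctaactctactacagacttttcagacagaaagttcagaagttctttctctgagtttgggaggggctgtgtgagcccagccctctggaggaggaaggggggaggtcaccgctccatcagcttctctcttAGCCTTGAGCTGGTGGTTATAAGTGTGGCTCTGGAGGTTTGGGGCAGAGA
Hsd3b1, chr3:98859745-98860044, minus strand: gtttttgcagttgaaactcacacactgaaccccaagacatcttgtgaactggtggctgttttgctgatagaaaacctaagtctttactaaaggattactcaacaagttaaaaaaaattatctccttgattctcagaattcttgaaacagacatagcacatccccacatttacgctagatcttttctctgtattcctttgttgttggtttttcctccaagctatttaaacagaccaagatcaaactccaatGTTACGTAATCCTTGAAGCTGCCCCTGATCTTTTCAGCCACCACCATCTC
Foxl2, chr9:98955357-98955656, plus strand: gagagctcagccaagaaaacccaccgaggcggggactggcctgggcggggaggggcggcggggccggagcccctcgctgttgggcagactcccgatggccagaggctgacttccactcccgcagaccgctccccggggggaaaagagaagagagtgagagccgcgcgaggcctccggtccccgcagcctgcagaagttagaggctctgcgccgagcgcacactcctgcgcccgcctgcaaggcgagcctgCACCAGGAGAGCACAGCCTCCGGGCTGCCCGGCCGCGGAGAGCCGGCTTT
Irx3, chr8:91801605-91801904, minus strand: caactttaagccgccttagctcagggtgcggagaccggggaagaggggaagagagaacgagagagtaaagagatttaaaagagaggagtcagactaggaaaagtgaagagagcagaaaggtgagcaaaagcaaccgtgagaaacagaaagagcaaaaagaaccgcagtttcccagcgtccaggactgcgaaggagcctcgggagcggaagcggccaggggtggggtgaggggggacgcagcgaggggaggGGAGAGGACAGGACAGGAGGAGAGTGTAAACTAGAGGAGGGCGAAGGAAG
The Hsd3b1 window was 38.7% G or C with 2 CpG dinucleotides, and the Cyp11a1 windows 58.3% with 7 and 51.0% with 1. The Foxl2 window was 71.3% G or C with 27 CpG dinucleotides and the Irx3 window 56.0% with 14, against a median of 58.3% and 16 over the windows of all genes tested. The motif AAGGNCA, bound by the gonadal factor NR5A1, was searched on both strands and occurred in 0 of the 5 windows shown. It occurred in 15.1% of the windows of genes called higher in testes, 17.0% of those called lower and 17.8% of those of all genes tested, and in 20.3% of all 32851 windows of this length. The letters AGATA, read by GATA factors, occurred on either strand in the second Cyp11a1 window and in the Hsd3b1 window. They occurred in 17.7% of the windows of genes called higher in testes and 20.3% of those called lower. The share was 22.3% for all genes tested and 29.6% for all windows. A match is only a description of these letters, as is its absence.

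Genes of cholesterol synthesis rose together with the steroid enzymes. Of 16 measured genes 16 rose, where 9.6% of all genes rose, and the median change was 1.85. Testis arrays lay wholly above the ovary arrays for 13 of them, as for 10.4% of all genes. Fdps, which makes farnesyl diphosphate on the way to sterols, had 9.83 and 10.1 in testes, against 7.18, 7.25 and 7.1 in ovaries. The groups were well apart, with a change of 2.78 ± 0.31 (limma adjusted p = 8.62e-07), although a second probe set gave 0.19. Dhcr7, the reductase of the last step to cholesterol, had 11.1 and 11.1 in testes, against 8.85, 9.04 and 8.42 in ovaries. Cyp51, which demethylates lanosterol, had 10.3 and 9.87 in testes, against 8.31, 7.8 and 6.85 in ovaries. Idi1, an isomerase of the mevalonate pathway, had 11.3 and 10.2 in testes, against 9.17, 8.15 and 7.56 in ovaries. Their changes were 2.35, 2.32 and 2.28, and none of them overlapped between the sexes. All 16 changes were positive under every setting run, and the count of rises was 10 with no class term and 10 in the narrow-spread arrays alone.

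Of 16 genes of glutathione transferases and Adh1, 7 rose and 0 fell, where 9.6% of all genes rose and 5.14% fell. Their median change was 0.54, and 0.313 without testis array 2. With no class term 4 rose. Gsta2, a glutathione transferase of the alpha class, had 10.4 and 9.42 in testes, against 3.67, 3.75 and 3.61 in ovaries. The change of 6.2 ± 0.26 (limma adjusted p = 6.17e-14) was the largest after those of Cyp11a1 and Cyp17a1, and against the limit for low signals testes were at least 22.7-fold higher. Adh1, an alcohol dehydrogenase that can oxidise retinol, had 12.7 and 12.1 in testes, against 8.21, 7.01 and 7.43 in ovaries. Gsta3 had 7.63 and 7.68 in testes, against 4.85, 4.21 and 4.78 in ovaries, and its mouse protein belongs to the same alpha class. The changes of Adh1 and Gsta3 were 4.74 ± 0.26 and 3.02 ± 0.2, both with groups apart. Gsta4, the fourth named member, had a change of 1.97 ± 0.16.

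Markers of the adrenal cortex were read beside these genes, since adrenal cells share the first steroid enzymes. Of 9 measured adrenal markers 4 rose and 0 fell, where 9.6% of all genes rose, and 2 rose without testis array 1 or without ovary array 1. The median signal of the list was 7.02 and 6.78 in testes, against 5.59, 6.29 and 6.58 in ovaries. Cyp11b1, the final enzyme of corticosterone synthesis, had 7.79 and 6.52 in testes, against 4.48, 4.59 and 5.06 in ovaries. Mc2r, the receptor for ACTH, had 8.49 and 8.28 in testes, against 6.36, 6.7 and 6.82 in ovaries. Both rose, by 2.45 and 1.87. Cyp21a1, the adrenal 21-hydroxylase gene, had a change of 0.53 (limma adjusted p = 0.0496), which lost the call without any 1 of testis array 1 and ovary arrays 1, 2 and 3 (adjusted p = 0.0626 to 0.536), and Mrap, an accessory protein gene of the ACTH receptor, rose by 0.77 but lost the call without testis array 1 or ovary array 1 (0.193 and 0.136). The chromaffin markers Th, Dbh, Pnmt and Chga, named after their values were seen, had changes of 0.03 to 0.24 and none was called. The part of adrenal-type cells in the steroid result was not tested.

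**Figure D3:**
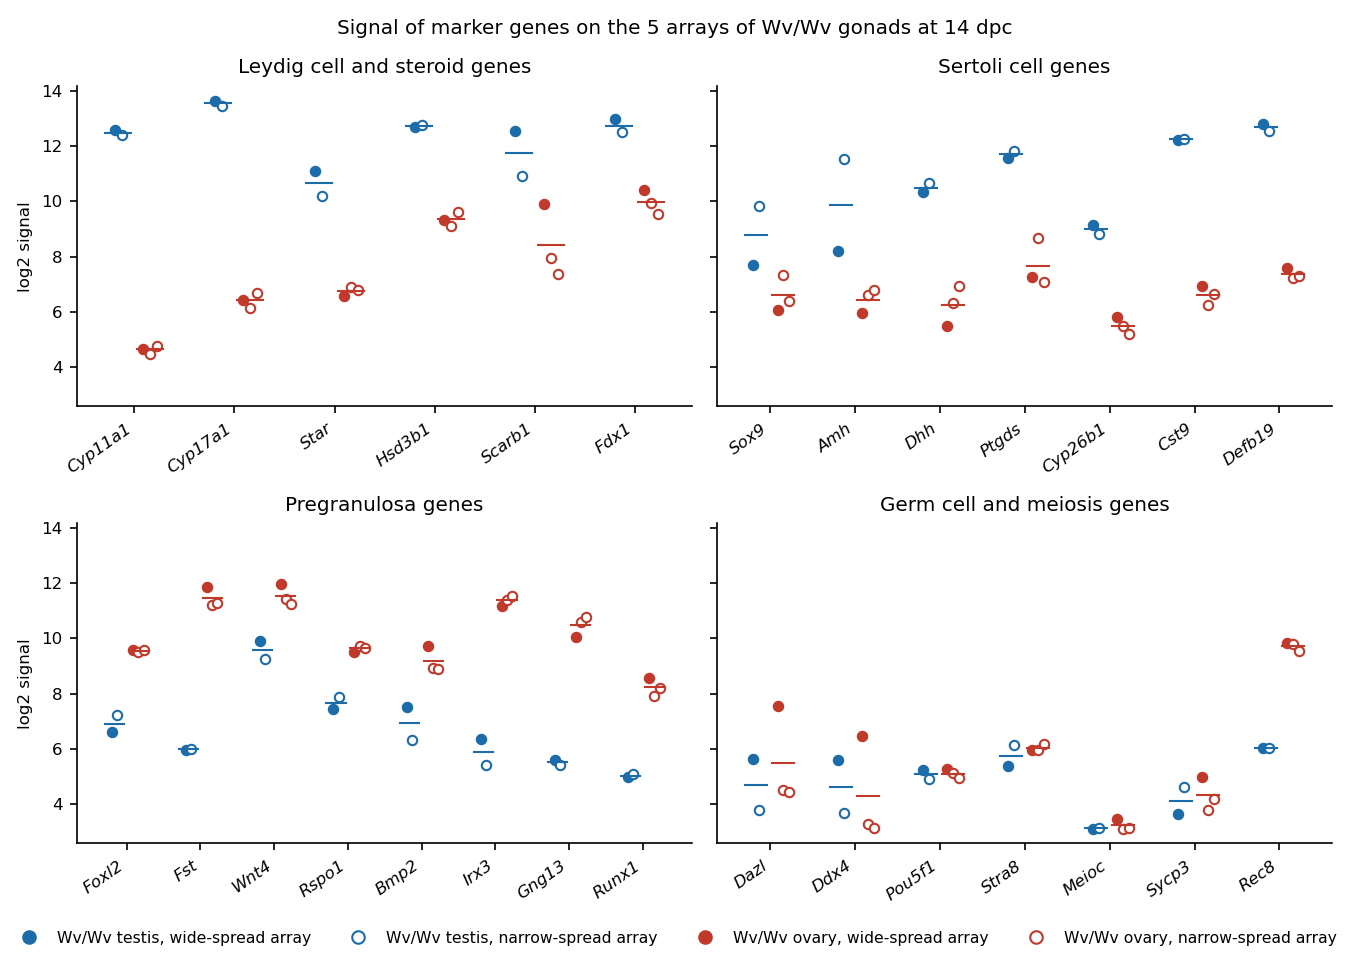
The log2 signal of marker genes is plotted for each array, with Wv/Wv testes (blue) left of Wv/Wv ovaries (red), filled points for wide-spread arrays, open points for narrow-spread arrays and a bar at the mean of each group. Leydig and Sertoli cell genes stand higher in testes and pregranulosa genes lower without overlap, while Dazl, Ddx4, Pou5f1, Stra8, Meioc and Sycp3 overlap and Rec8 does not.

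Sertoli cell genes rose almost without exception. Of 27 measured genes 25 rose and 0 fell, where 9.6% of all genes rose. The median change was 3.00, and the testis arrays lay above the ovary arrays for 25, as for 10.4% of all genes. The members that did not pass, named after their values were seen, were the growth factor genes Fgf9 at a change of 0.35 and Fgf18 at 0.27. The count was 20 with no class term, 18 in the wide-spread arrays alone and 23 in the narrow-spread arrays alone. Cst9, the gene of a cystatin protease inhibitor made by fetal Sertoli cells, had 12.2 and 12.3 in testes, against 6.95, 6.23 and 6.65 in ovaries. Defb19, a beta defensin gene of Sertoli cells, had 12.8 and 12.5 in testes, against 7.6, 7.23 and 7.3 in ovaries. The groups of both were far apart on every array, with changes of 5.58 ± 0.38 and 5.28 ± 0.42 (limma adjusted p = 3.73e-10 and 4.62e-09). Cbln1, the gene of a secreted cerebellin that is in none of the lists, had 11.8 and 11.4 in testes, against 6.24, 5.83 and 5.75 in ovaries, and all 3 of its probe sets rose, by 3.46 to 6.69.

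Sox9, the transcription factor that carries Sertoli cell fate after Sry, had 7.71 and 9.81 in testes, against 6.06, 7.32 and 6.4 in ovaries. Amh, the hormone that removes the Müllerian duct, had 8.19 and 11.5 in testes, against 5.94, 6.59 and 6.79 in ovaries. For both genes the narrow testis array read higher than the wide one, by more than the lower testis array exceeded the highest ovary array. The changes were 2.4 ± 0.27 for Sox9 and 3.69 ± 0.48 for Amh (limma adjusted p = 9.83e-07 and 5.51e-06), and the groups did not overlap. Ptgds, the prostaglandin D synthase, had 11.6 and 11.8 in testes, against 7.27, 8.66 and 7.07 in ovaries. Dmrt1, a factor that keeps Sertoli cells male and is also expressed in germ cells, had 8.46 and 7.7 in testes, against 5.87, 4.82 and 5.34 in ovaries. Cyp26b1, which degrades retinoic acid in the fetal testis, had 9.14 and 8.83 in testes, against 5.81, 5.48 and 5.2 in ovaries. These rose by 4.14, 2.61 and 3.41, with limma adjusted p = 1.75e-07, 0.00204 and 6.89e-09.

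Signals sent by Sertoli cells and their targets were read by pathway. Dhh, the hedgehog ligand of Sertoli cells, had 10.3 and 10.7 in testes, against 5.48, 6.33 and 6.92 in ovaries. Ptch1, the receptor of hedgehog ligands and itself a target of the pathway, had 12.3 and 11.3 in testes, against 10.1, 8.32 and 7.75 in ovaries. Gli1, a transcription factor induced by the pathway, had 8.93 and 9.1 in testes, against 6.03, 6.22 and 4.83 in ovaries. No gene of these overlapped, and Hhip, a ligand-binding protein induced by hedgehog, did not either, with 9.28 and 8.17 in testes, against 5.14, 5.16 and 5.74 in ovaries. The changes were 4.31 ± 0.38 for Dhh, 2.83 ± 0.28 for Ptch1, 3.3 ± 0.35 for Gli1 and 3.37 ± 0.47 for Hhip. Of the 13 measured hedgehog genes 5 rose and 1 fell, where 9.6% of all genes rose and 5.14% fell. The fifth rise was Gli2 (1.64) and the fall the co-receptor gene Boc (-1.0), both named after their values were seen.

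Of 25 genes of TGF-beta, activin and BMP signalling 6 rose and 4 fell, where 9.6% of all genes rose and 5.14% fell. Their median change was 0.03. Inha, the alpha subunit of inhibin, had 12.2 and 11.9 in testes, against 9.5, 8.93 and 8.48 in ovaries, and its change was 2.98 ± 0.26 (limma adjusted p = 1.65e-08). Fst, the binding protein that blocks activin, had 5.98 and 5.99 in testes, against 11.9, 11.2 and 11.3 in ovaries. It moved the other way, with a change of -5.54 ± 0.25 (limma adjusted p = 2.94e-13), the largest fall after Calb1. Lefty2, an inhibitor of Nodal known from fetal male germ cells, had 7.64 and 5.9 in testes, against 3.81, 3.99 and 3.83 in ovaries. It rose by 2.83 ± 0.29 although the other Nodal pathway members Nodal, Lefty1 and Tdgf1, named after their values were seen, had changes of -0.2, 0.49 and -0.17 and were not called.

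Of 12 genes of FGF signalling 5 rose and 1 fell, where 9.6% of all genes rose and 5.14% fell. Their median change was 0.46. The rises were 1 with no class term, 2 with a 1.5-fold minimum and 3 without ovary array 3, where the median was 0.257. Without testis array 2 or 1 the median was 0.578 and 0.615, and in wide-spread arrays alone 0.315. These fits leave 1 testis array, and a kept median does not show that the calls held. Dusp6, a phosphatase induced by FGF signalling, rose by 1.78 ± 0.31 and Etv5, a transcription factor of the same response and of Sertoli cells, by 1.59 ± 0.29. Fgfr2, a receptor of FGF9, fell by 1.49, and Fgfr3 rose by 0.89 but lost the call without testis array 2 (adjusted p = 0.092). Among 10 prostaglandin genes, Ptgds and the receptor gene Ptger4 (1.24) rose; Ptger4 lost the call without any 1 of testis arrays 1 and 2 and ovary arrays 2 and 3 (adjusted p = 0.0537 to 0.178). Of 15 retinoic acid genes 2 rose and 1 fell, near the shares of all genes, 9.6% and 5.14%. Aldh1a1, a retinaldehyde dehydrogenase, rose by 1.75 ± 0.32 and its relative Aldh1a3 fell by 1.27, a call lost without testis array 2 or ovary array 1 (adjusted p = 0.12 and 0.0596).

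Pregranulosa genes went the other way. Of 22 measured genes 19 fell and 1 rose, with a median change of -2.07, where 5.14% of all genes fell. The members that did not pass, named after their values were seen, were Nr0b1 at a change of -0.82 (limma adjusted p = 0.0521) and Lef1 at -0.68, and the member that rose was Wnt5a, which is also a stroma marker and had 11.3 and 10.7 in testes, against 10.2, 9.04 and 9.08 in ovaries. Between 17 and 21 of the 22 fell under the other settings and without each of the 5 arrays in turn.

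Irx3, a homeobox factor of pregranulosa cells, had 6.37 and 5.42 in testes, against 11.2, 11.4 and 11.6 in ovaries, a change of -5.5 ± 0.25 (limma adjusted p = 3.47e-13). Gng13, a G protein subunit gene, had 5.59 and 5.42 in testes, against 10.1, 10.6 and 10.8 in ovaries. Runx1, a transcription factor of ovarian supporting cells, had 4.97 and 5.07 in testes, against 8.58, 7.9 and 8.19 in ovaries. None of the 3 genes came close to overlap. Foxl2, the forkhead factor of granulosa cells, had 6.6 and 7.23 in testes, against 9.58, 9.52 and 9.57 in ovaries, and its change was -2.59 ± 0.23 (limma adjusted p = 3.21e-08). Foxl2os, its antisense neighbour, had 4.21 and 4.26 in testes, against 9.22, 8.13 and 8.09 in ovaries, and it fell further, by 4.41. Other probe sets of Foxl2 and Runx1 gave much smaller changes.

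The Wnt arm showed smaller differences. Wnt4, the ligand needed for ovary formation, had 9.89 and 9.27 in testes, against 12.0, 11.4 and 11.2 in ovaries. Rspo1, which strengthens Wnt signals, had 7.45 and 7.86 in testes, against 9.52, 9.74 and 9.66 in ovaries. Bmp2, a growth factor gene of the fetal ovary, had 7.53 and 6.34 in testes, against 9.72, 8.92 and 8.89 in ovaries. None of these overlapped, and the changes were -2.04 ± 0.23, -1.91 ± 0.21 and -2.35 ± 0.3. Of 11 measured targets of Wnt and beta-catenin 5 fell and 1 rose, where 5.14% of all genes fell and 9.6% rose. Their median change was -1.18. Sp5, Rnf43, Nkd1 and Lgr5, all induced by Wnt signals, fell by 2.78, 2.17, 2.09 and 1.85. The rise, named after its value was seen, was that of the secreted Wnt inhibitor Dkk1, at 1.58.

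Calb1, the gene of the calcium-binding protein calbindin, gave the largest fall of all genes, with 4.44 and 4.4 in testes, against 10.6, 10.0 and 10.4 in ovaries (change -5.95 ± 0.33, limma adjusted p = 1.04e-11). The testis signals lay below the limit for low signals, and against it ovaries were at least 30.7-fold higher. Other probe sets of Calb1 gave much smaller changes. Calb1 stands in the list of mesonephros and kidney tubule genes. Of these 3 of 13 fell and 0 rose, where 5.14% of all genes fell and 9.6% rose. The median list signal was 5.10 and 5.63 in testes, against 6.66, 6.45 and 6.30 in ovaries. Pax8, a factor of the mesonephros and its ducts, had 5.67 and 6.03 in testes, against 7.68, 7.71 and 7.61 in ovaries, a change of -1.8. Ret, the receptor of the ureteric bud, had a change of -0.54, which lost the call without testis array 1 (adjusted p = 0.508) or ovary array 1 or 2 (0.0879 and 0.0716). Pax2 was not analysed here, and the part of mesonephric tissue in the fall of Calb1 was not tested. Other large falls were Tnfrsf19, a receptor of the TNF family, with 7.28 and 6.8 in testes, against 12.0, 11.7 and 11.9 in ovaries, and Lzts1, with 6.71 and 6.67 in testes, against 10.6, 10.5 and 10.5 in ovaries. The ovary arrays of both genes lay close together and far above the testis arrays.

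**Figure D4:**
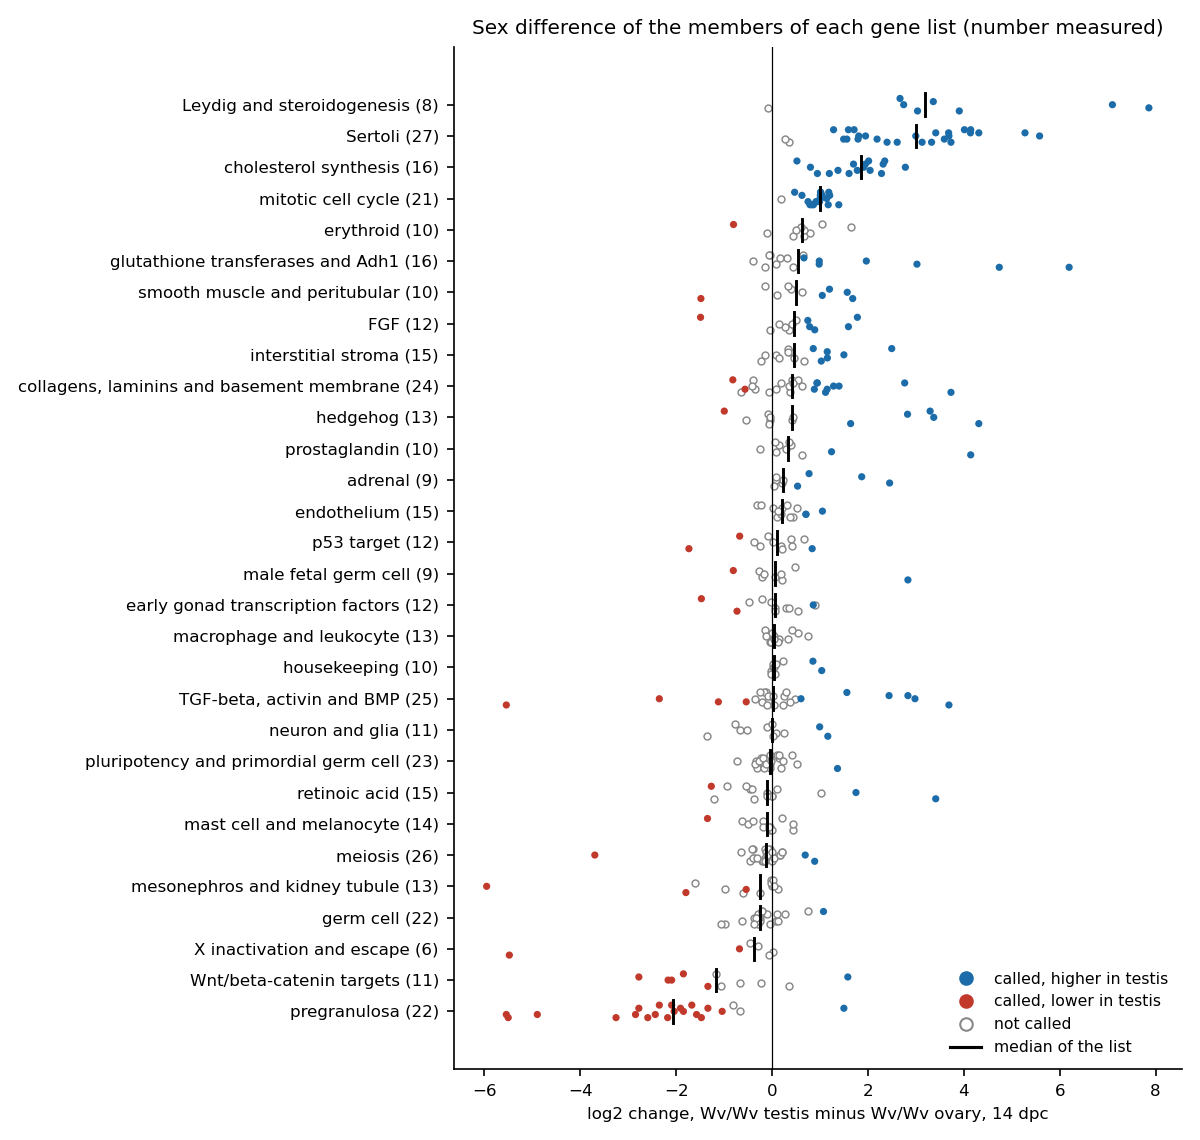
Each point is 1 gene of a list, plotted by its log2 change, Wv/Wv testis minus Wv/Wv ovary at 14 dpc, with filled blue for a called rise, filled red for a called fall, open grey for no call and a bar at the list's median. The medians run from 3.20 for Leydig cell and steroidogenesis genes to -2.07 for pregranulosa genes, and the medians of macrophage, mast cell, neuron and germ cell lists lie near 0.

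Of 12 measured transcription factor genes that both sexes need in the early gonad 1 rose and 2 fell, where 9.6% of all genes rose and 5.14% fell. Gata4, needed to form the genital ridge, had 10.0 and 10.7 in testes, against 10.2, 10.5 and 10.3 in ovaries, with overlap and a change of 0.06 ± 0.35. Nr5a1, which drives the steroid genes, had 11.0 and 11.3 in testes, against 10.3, 10.3 and 10.3 in ovaries. Its arrays did not overlap, but its change of 0.91 ± 0.34 missed the threshold (limma adjusted p = 0.0829), and another probe set gave -0.50. Lhx9, a factor of the genital ridge, had a change of -0.48 (limma adjusted p = 0.37). Emx2 fell by 1.47 and Wt1, which keeps Sertoli and other somatic cells in their state, fell by 0.73, a call lost without testis array 1 (adjusted p = 0.0564). Tcf21, also a stroma marker, rose by 0.86. That call was lost with no class term, with the class term over all 31 arrays and with a 1.5-fold minimum.

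Genes of the mitotic cell cycle were higher in Wv/Wv testes. Of 21 measured genes 20 rose and 0 fell, where 9.6% of all genes rose. Their median change was 1.00, against 0.05 over all genes. Bub1, a spindle checkpoint kinase, had 10.3 and 9.21 in testes, against 9.21, 8.0 and 7.35 in ovaries. Birc5, which acts in chromosome segregation and cell survival, had 9.73 and 10.0 in testes, against 8.78, 8.99 and 8.3 in ovaries. Aurka and Aurkb, kinases of mitosis, rose by 1.18 and 1.17. The signal of Bub1 moved with array class too, and the narrow testis array, at 9.21, read the same as the wide ovary array, at 9.21. At least 20 of the 21 genes had a positive change under every setting run, but the count of calls was 4 with no class term, 13 in the wide-spread arrays alone, 1 in the narrow-spread arrays alone, 17 with housekeeping centring and 13 without testis array 2. Among 12 targets of p53, Cdkn1a, an inhibitor of the cell cycle, had 7.17 and 7.33 in testes, against 9.39, 8.86 and 8.48 in ovaries. It fell by 1.73, without overlap. Phlda3 rose by 0.84, a call lost without testis array 2 (adjusted p = 0.302), and Trp53inp1 fell by 0.67, a call lost without testis array 2, testis array 1 or ovary array 1 (adjusted p = 0.224, 0.0503 and 0.052).

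Stroma, muscle and matrix genes showed partial differences, set here beside the 9.6% of all genes that rose and the 5.14% that fell. Of 15 genes of interstitial stroma 6 rose and 0 fell, but only 1 rose with no class term and 2 with a 1.5-fold minimum. Their median change was 0.453, and 0.627 without testis array 2, which does not show that the calls held. Vcam1, an adhesion molecule of interstitial cells, had 8.63 and 7.57 in testes, against 7.36, 5.28 and 3.18 in ovaries, a wide spread among ovaries, and lost the call without testis array 2 (adjusted p = 0.0872). Pdgfrb and Nr2f2 rose by 1.15 and 1.15 and also lost the call without that array (adjusted p = 0.155 and 0.245); Nr2f2 lost it without testis array 1 or ovary array 2 or 3 too (0.112, 0.0529 and 0.141). Of 10 smooth muscle and peritubular genes 4 rose and 1 fell. Acta2, smooth muscle actin of peritubular and vascular cells, had 13.0 and 13.0 in testes, against 11.3, 11.4 and 11.3 in ovaries. Myl9, a myosin light chain, had 10.1 and 10.3 in testes, against 11.8, 11.6 and 11.8 in ovaries. The first rose by 1.68 ± 0.2 and the other fell by 1.48, both without overlap. Tagln and Actg2 rose by 1.57 and 1.2. Of 24 collagen, laminin and basement membrane genes 9 rose and 2 fell (1 without ovary array 1 or 2, and 3 without ovary array 3). Leaving out either testis array changed the count of falls too. With no class term 5 rose and 0 fell. The rises were led by Col9a3, also a Sertoli cell gene (3.73), Col4a4 (2.77), Col15a1 (1.4) and Lama2 (1.28).

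Markers of other cells of the gonad are given beside the 9.6% of all genes that rose and the 5.14% that fell, and no list of them is read as a result of its own. Of 15 endothelial genes 3 rose: Tek (1.05), Cdh5 (0.71) and Sox18 (0.71); Cdh5 lost the call without testis array 1 (adjusted p = 0.17) and Sox18 without testis array 2 (0.181). None of 13 macrophage and leukocyte genes was called, the most moved being Lyz2 (0.75) and Ptprc (0.54). Of 14 mast cell and melanocyte genes, which matter here since both lineages depend on Kit, only the melanocyte gene Dct was called, with 5.79 and 5.33 in testes, against 7.21, 6.91 and 6.58 in ovaries; it lost the call without testis array 2 or ovary array 1 (adjusted p = 0.221 and 0.0599). Of 10 erythroid genes Tfrc, the transferrin receptor, fell by 0.81, a call lost without testis array 2 (adjusted p = 0.282), and the median change of the list was 0.63 with 0 rises called. Without ovary array 1 that median was 0.281, and in a fit of the 5 arrays alone 5 erythroid genes rose. Of 11 neuron and glia genes Tubb3 and Sox10 rose by 1.16 and 0.99, and both lost the call without testis array 1 (adjusted p = 0.139 and 0.1425) or ovary array 1 (0.0944 and 0.0529), Tubb3 also without testis array 2 (0.0764).

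Germ cell genes gave few called sex differences, and Dazl and Ddx4 were far lower than in wild type. Dazl, an RNA-binding protein gene of all germ cells, had 5.62 and 3.79 in testes, against 7.54, 4.51 and 4.43 in ovaries. Ddx4, a germ cell helicase gene, had 5.6 and 3.67 in testes, against 6.46, 3.28 and 3.13 in ovaries. The groups overlapped, with the wide arrays higher in each sex, and ovary array 1 stood above the other arrays for both genes. Wv/Wv minus wild-type changes at 14 dpc were -6.33 ± 0.59 in testes and -6.66 ± 0.52 in ovaries for Dazl, and -5.16 ± 0.51 and -6.38 ± 0.45 for Ddx4 (limma adjusted p = 5.93e-07, 3.38e-09, 1.09e-06 and 8.95e-10). The changes between the sexes in Wv/Wv gonads were -0.97 ± 0.57 and 0.08 ± 0.49, and neither was called. On the narrow arrays both genes lay below 5.387, the limit for low signals. The median signal of the germ cell list lay below it on all 5 arrays (4.615 to 5.119), so a sex difference could be missed. Of 22 germ cell genes 1 rose and 0 fell, against a background of 9.6% and 5.14%, the rise being Ddx25 at 1.06, which lost the call without each of the 5 arrays in turn (adjusted p = 0.059 to 0.267). Of 23 pluripotency and primordial germ cell genes the phosphatase gene Alpl rose by 1.34, a call lost without testis array 1 (adjusted p = 0.103), and Kit had a change of 0.41 (limma adjusted p = 0.288). Of 9 genes of male fetal germ cells Lefty2 rose, as above, and the cell cycle inhibitor gene Cdkn2b fell by 0.81, a call lost without testis array 2 (adjusted p = 0.266).

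Among meiosis genes Rec8 stood apart. Stra8, which retinoic acid induces before meiosis, had 5.37 and 6.14 in testes, against 5.97, 5.94 and 6.16 in ovaries. Sycp3, a component of the synaptonemal complex, had 3.63 and 4.61 in testes, against 5.0, 3.77 and 4.18 in ovaries. Both overlapped, with changes of -0.2 ± 0.54 and -0.18 ± 0.42. Rec8, the cohesin subunit of meiotic chromosomes, had 6.05 and 6.02 in testes, against 9.82, 9.79 and 9.54 in ovaries. All ovary arrays stood far above the testis arrays, with a change of -3.7 ± 0.3 (limma adjusted p = 6.89e-09), and it fell under every setting run. Of 26 meiosis genes 1 fell and 2 rose, where 5.14% of all genes fell and 9.6% rose; the rises, Taf4b at 0.89 and Syce2 at 0.69, both lost the call without testis array 1 (adjusted p = 0.447 and 0.11). Taf4b also lost it without ovary array 1 or 2 (0.0585 and 0.176), and Syce2 without testis array 2 or ovary array 3 (0.149 and 0.0879).

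The sex difference in Wv/Wv gonads was then set against that in wild-type gonads of the same age, to ask where it depends on genotype. These comparisons share no arrays, but both came from 1 fit with the same class term and the same residual spread for each gene. Shared calls are therefore not fully independent. In wild type 3270 genes were called (18%), 1412 higher in testes (7.76%) and 1858 lower (10.2%). Of 1747 rises in Wv/Wv gonads 898 were also rises in wild type (51.4% of the Wv/Wv and 63.6% of the wild-type rises) and 37 were falls there. Of 935 falls 660 were also falls in wild type (70.6% of the Wv/Wv and 35.5% of the wild-type falls). All wild-type testis arrays at 14 dpc were wide, so genotype and array class partly coincide. Differences between genotypes therefore rest on the class shift fitted over all groups. The difference between genotypes, tested as an interaction that again uses the 5 Wv/Wv arrays, was called for 351 genes (1.93%), 319 with a higher testis minus ovary value in Wv/Wv gonads (1.75%) and 32 with a lower one (0.176%). This split moved to 125 higher and 90 lower with housekeeping centring, and to 282 and 78 with quantile normalization. The count was 50 with no class term, 113 and 188 without testis array 2 or 1, and 750 and 209 without ovary array 1 or 3.

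Of the 26 meiosis genes 15 had a called interaction, all higher, and of the 21 cell cycle genes 6, all higher. Over all genes 1.75% had a higher one. Stra8 averaged 5.75 ± 0.55 in Wv/Wv testes (SD, n = 2) and 6.03 ± 0.12 in Wv/Wv ovaries, against 5.75 ± 0.18 in wild-type testes and 11.6 ± 0.6 in wild-type ovaries (n = 3 each). The Wv/Wv minus wild-type change was -0.21 ± 0.57 in testes and -5.72 ± 0.5 in ovaries (limma adjusted p = 0.953 and 2.15e-08), an interaction of 5.51 ± 0.73 (limma adjusted p = 0.000133). Meioc, a meiotic regulator, averaged 3.12 in Wv/Wv testes and 3.23 in Wv/Wv ovaries, against 3.71 in wild-type testes and 8.98 in wild-type ovaries, an interaction of 5.2. Rec8 averaged 6.03 ± 0.02 in Wv/Wv testes and 9.72 ± 0.15 in Wv/Wv ovaries, against 6.42 ± 0.29 in wild-type testes and 10.6 ± 0.2 in wild-type ovaries (SD). Its sex difference was called in both genotypes, with an interaction of 0.45 ± 0.41 (limma adjusted p = 0.686). In the opposite direction, Pmaip1, an apoptosis gene, averaged 4.27 in Wv/Wv testes and 3.57 in Wv/Wv ovaries, against 8.84 in wild-type testes and 3.62 in wild-type ovaries, an interaction of -4.49. Nodal, a growth factor of fetal male germ cells, had an interaction of -2.38 and Otx2, a homeobox gene, of -3.19. Lefty2 had -1.92 (limma adjusted p = 0.00985).

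Of the somatic lists each of the following had 1 called interaction, where 1.93% of all genes had one, and nothing is read from so small a count. Of 27 Sertoli cell genes 1 was called, Cited1, a transcriptional co-regulator, with a change of 3.33 in Wv/Wv gonads and 0.94 in wild type. Of 8 Leydig cell genes 1 was called, Fdx1, the electron carrier to Cyp11a1, with 2.67 in Wv/Wv gonads and 1.83 in wild type. Of 16 cholesterol genes 1 was called, Fdps, with 2.78 in Wv/Wv gonads and 0.97 in wild type, and the list's median change was 1.85 in Wv/Wv gonads and 0.88 in wild type. Of 22 pregranulosa genes 1 was called, Gng13, with -4.9 in Wv/Wv gonads and -2.94 in wild type, its wild-type testes averaging 7.47 against 5.51 in Wv/Wv testes. Cited1 and Fdx1 were named after their values were seen. Dmrt1 had 2.61 in Wv/Wv gonads and 0.16 in wild type, but its interaction missed the threshold (limma adjusted p = 0.099). For Cyp11a1 and Fst the changes were 7.86 and -5.54 in Wv/Wv gonads and 7.36 and -5.55 in wild type, and their interactions were 0.5 ± 0.33 and 0.0 ± 0.33. The cell cycle list had a median change of 1.00 in Wv/Wv gonads and 0.19 in wild type, where 3 of 21 genes rose.

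**Figure D5:**
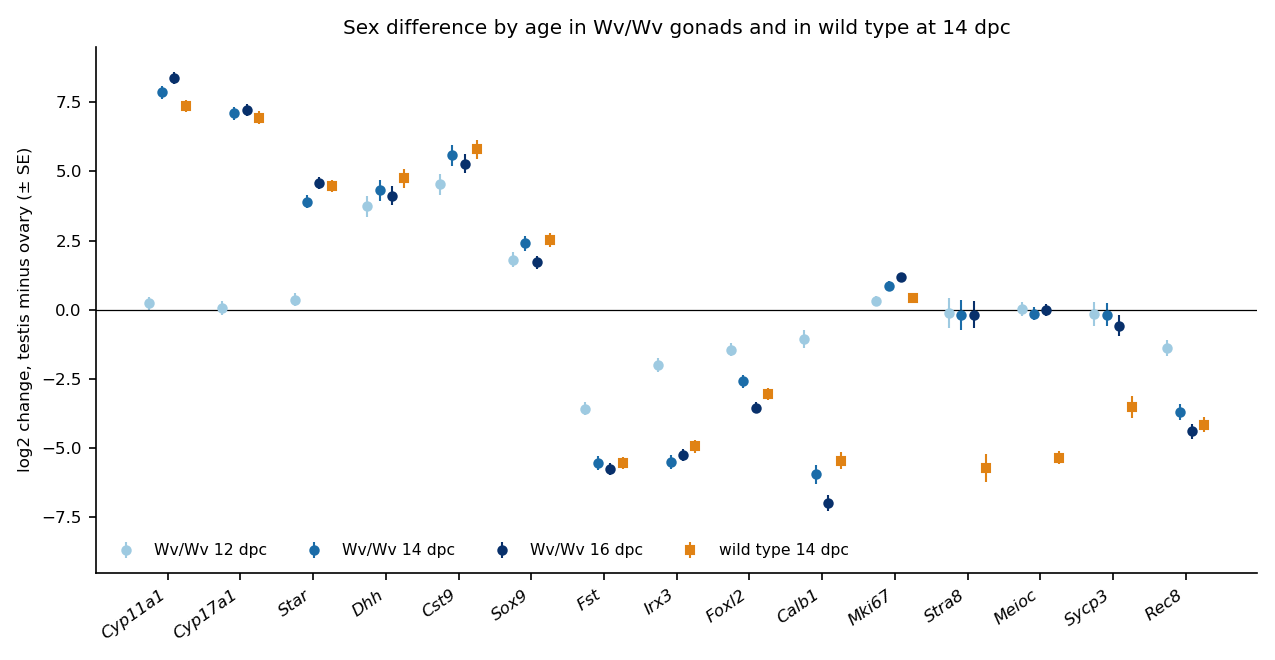
The log2 change, testis minus ovary, with its SE is plotted for 15 genes, with Wv/Wv gonads at 12, 14 and 16 dpc as circles from light to dark and wild-type gonads at 14 dpc as squares. Cyp11a1 stands at 0.23 at 12 dpc and at 7.86 and 8.36 at 14 and 16 dpc, Dhh is high at all 3 ages, and Stra8, Meioc and Sycp3 lie near 0 in Wv/Wv gonads and below -3 in wild type.

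Within Wv/Wv gonads the sex differences at 14 dpc were set between those at 12 and 16 dpc. At 12 dpc 406 genes were called (2.23%) and at 16 dpc 3728 (20.5%). The change from 12 to 14 dpc in the sex difference was called for 452 genes (2.48%), 251 higher (1.38%) and 201 lower (1.1%) at 14 dpc. This split moved to 180 higher and 518 lower with housekeeping centring, and to 273 and 291 with quantile normalization. These differences between ages share the 14 dpc arrays with the comparison above. The count was 54 with no class term, 287 without testis array 2 and 299 without testis array 1. Of the 8 Leydig cell genes 7 were higher, and of the 16 cholesterol genes 14. Cyp11a1 averaged 5.87 ± 0.45, 12.5 ± 0.13 and 12.9 ± 0.07 in testes at 12, 14 and 16 dpc, against 5.63 ± 0.04, 4.64 ± 0.15 and 4.58 ± 0.18 in ovaries (SD, n = 3, 2 and 3 testis and 2, 3 and 3 ovary arrays). Its sex difference was 0.23 ± 0.24 at 12 dpc, 7.86 at 14 dpc and 8.36 at 16 dpc. Hsd3b1 averaged 6.90, 12.7 and 13.0 in testes at the 3 ages, against 5.83, 9.34 and 10.5 in ovaries, so its signal was higher at later ages in both sexes. Sostdc1, a BMP and Wnt antagonist, and Hao2, a hydroxy acid oxidase, had sex differences of -0.71 and -0.68 at 12 dpc and 4.46 and 4.37 at 14 dpc.

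Sertoli cell genes differed earlier. At 12 dpc 17 of the 27 already rose in testes (1.4% of all genes), and the difference between 14 and 12 dpc was called for 6 of the 27, 5 higher and 1 lower. Dhh had sex differences of 3.74, 4.31 and 4.12 at 12, 14 and 16 dpc, and Cst9 of 4.54, 5.58 and 5.28. Amh had 0.81, 3.69 and 2.62, and only the step from 12 to 14 dpc was called (limma adjusted p = 0.018). Of the 22 pregranulosa genes 14 fell at 12 dpc (0.835% of all genes), and 8 had a larger negative value at 14 dpc by the test. Irx3 averaged 6.93, 5.90 and 5.93 in testes, against 8.92, 11.4 and 11.2 in ovaries, so its ovary mean was higher at 14 than at 12 dpc. All 12 dpc arrays were wide, while at 14 dpc the narrow testis array read lower than the wide one. The step within either sex was not tested. Calb1 averaged 8.84 ± 0.91, 4.42 ± 0.03 and 3.99 ± 0.45 in testes, against 9.89 ± 0.16, 10.3 ± 0.28 and 11.0 ± 0.17 in ovaries (SD), so the sexes parted mostly through the testis values. Tnfrsf19, Gng13 and Rmst, a long non-coding RNA, had differences between 14 and 12 dpc of -3.53, -3.41 and -2.88. Rec8 had sex differences of -1.38, -3.7 and -4.39 at the 3 ages.

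From 14 to 16 dpc the sex difference changed for 24 genes (0.132%), 7 higher (0.0385%) and 17 lower (0.0934%) at 16 dpc. By limma with no class term 0 genes were called, with 348 at an unadjusted p below 0.05. With the class term the count was 5 and 75 without testis array 2 or 1 and 85, 9 and 12 without ovary array 1, 2 or 3. No gene of the Leydig, cholesterol, pregranulosa or cell cycle lists was among the 24, and of the Sertoli list only Aard was. Aard, a gene of unknown function in Sertoli cells, averaged 11.45, 12.6 and 11.4 in testes at 12, 14 and 16 dpc, against 7.74, 8.49 and 9.65 in ovaries. Its sex difference was 3.7, 4.01 and 1.71, with a step of -2.30 from 14 to 16 dpc (limma adjusted p = 0.00621). Dpt, which encodes the matrix protein dermatopontin, averaged 4.13, 4.99 and 7.14 in testes, against 4.24, 5.99 and 5.98 in ovaries, so it was lower in testes at 14 dpc (-0.87) and higher at 16 dpc (1.16). The fall at 14 dpc lost the call without testis array 1 or 2 or ovary array 2 (adjusted p = 0.0581, 0.417 and 0.121).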

How the data were processed

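RNA of whole gonads was measured on Affymetrix arrays with 45101 probe sets, and 31 arrays in 12 groups were used. The values are log2 signals as the authors deposited them, made by RMA per the submitters' processing notes; its version was not given in the sources used here. There is no read depth on arrays, and precision is set by how many there are.

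Of the probe sets 34958 had 1 gene symbol in the platform annotation, 932 several and 9211 were not listed. Each of 18194 genes was read from 1 probe set, that of highest average signal across the 31 arrays; for Cyp11a1, Eif2s3y, Kdm5d, Calb1, Foxl2 and Runx1 other probe sets gave much smaller changes. Arrays were classed by the SD of their values over probe sets, below or above 2.25. limma 3.58.1 (R 4.3.3, lmFit and eBayes) fitted 1 mean per group and the class over 30 arrays, leaving out wild-type testis 16 dpc replicate 1. The call rule was a p below 0.05 after Benjamini-Hochberg adjustment over all genes, and the tests were checked on simulated data drawn from the fitted model. Those data assume the class term and independent noise of equal spread on every array, so they cannot check either. Tables and figures used Python 3.11.15, pandas 2.3.3, numpy 2.4.6 and matplotlib 3.10.9. Samples were grouped by the labels. Alternatives covered the class term, the arrays fitted, array weights, normalization, filters and leaving out each array.

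The comparison, the class term and the gene lists were chosen with earlier results of these data known, so no list is independent evidence. Genes were named by rule: the 10 largest rises and falls without overlap, up to 4 called members of each list (2 where none was called), the 5 largest interactions in each direction, and a set of marker genes. A few others, and the genes drawn in the figures, were chosen after their values were seen.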

Additional observations from a re-analysis of the deposited data

Results flagged for a closer look

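The genes below had sex differences that differed between genotypes or ages by a test of the difference itself (limma interaction, adjusted p below 0.05 over all genes), and are the 5 largest called in each direction. All comparisons use the 5 Wv/Wv arrays of 14 dpc.

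Between genotypes at 14 dpc, the testis minus ovary value was higher in Wv/Wv than in wild type for Stra8 by 5.51, Meioc by 5.2, 1700013H16Rik by 4.69, Tex101 by 4.42 and Rhox6 by 4.21. It was lower in Wv/Wv gonads for Pmaip1 (-4.49), Uba1y (-3.87), Otx2 (-3.19), Hesx1 (-2.46) and Nodal (-2.38). Tex101 and Uba1y were called in 15 of 16 settings (highest adjusted p = 0.156 and 0.227), and the other 8 genes in every setting run.

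From 12 to 14 dpc in Wv/Wv gonads, the value was higher at 14 dpc for Cyp11a1 by 7.63, Cyp17a1 by 7.03, Gsta2 by 5.78, Sostdc1 by 5.17 and Hao2 by 5.05. It was lower at 14 dpc for Calb1 (-4.89), Tnfrsf19 (-3.53), Irx3 (-3.51), Gng13 (-3.41) and Rmst (-2.88). Rmst was called in 14 of 15 settings (highest adjusted p = 0.0511), and the other 9 genes in every setting run.

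From 14 to 16 dpc, the value was higher at 16 dpc for Dpt by 2.04, Lin7a by 1.88, Gabrb2 by 1.8, Adgrb3 by 1.73 and Gm13306 by 1.64. It was lower at 16 dpc for Aard (-2.3), Edaradd (-1.91), Dync1i1 (-1.86), Tnc (-1.79) and Rragd (-1.71). These were called in 4 to 13 of 15 or 16 settings and kept their sign in all of them.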

How the results depend on the processing

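The count of genes called between Wv/Wv testes and ovaries (2682) was 671 with no class term, 1668 with the class term over all 31 arrays, 1664 from the 5 arrays alone, 1320 in wide-spread and 581 in narrow-spread arrays alone, 541 with a 1.5-fold minimum, and 4605 of 45101 when every probe set was tested. Leaving out 1 of the 5 arrays gave 1318 (without testis 2) to 2920 (without ovary 1). The 2682 called genes kept their sign under the alternatives that tested all of them, except that 2671 did so in the wide-spread arrays alone. With low-signal genes left out 2477 of them were tested, and these kept their sign. All these fits share arrays with the calls, so a kept sign is no independent support. The interaction with genotype (351) was 50 with no class term, 180 over 31 arrays, 94 in wide-spread arrays, 1006 with array weights, 215 with housekeeping centring, and 113 (without testis 2) to 750 (without ovary 1) leaving out 1 array. The difference between 14 and 12 dpc (452) was 54, 254, 855 and 698 with no class term, 31 arrays, array weights and housekeeping centring, and 287 (without testis 2) to 459 (without ovary 3), with 299 without testis 1. The difference between 16 and 14 dpc (24) was 0 with no class term and 0 in each class alone by limma (348, 736 and 688 genes at an unadjusted p below 0.05), 6 over 31 arrays, 191 with array weights, 13 with housekeeping centring, and 5 (without testis 2) to 85 (without ovary 1), with 75 without testis 1, 9 without ovary 2 and 12 without ovary 3. The causes were not tested.

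Testis and ovary arrays numbered 1 are both wide and those numbered 2 both narrow, so pairing by number cannot be told apart from class. Deviations of same-numbered arrays correlated at 0.847 and 0.639 before the class term and at -0.276 and -0.0303 after it. The 2 testis arrays deviate in mirror image from their mean, so these values neither show nor exclude pairing. With the replicate block and the class term the counts were 2366, 281, 383 and 16. Without testis 2 the only testis array is wide, and the lone array is assumed to vary like the other groups. There are 2 testis arrays, 1 in each class, which limits the precision.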
